A study of Mus musculus with 16 samples.

Results

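The genes described here are 40 interferon-stimulated antiviral genes, measured in the lungs of Fra-2 transgenic (TG) and wild-type (WT) mice. They were taken by name from the gene symbols of the array, and all 40 were found among the 24306 genes with a symbol. A gene with several features on the array was represented by the feature with the highest mean over all arrays. TG mice express the AP-1 transcription factor Fra-2, encoded by Fosl2, from an ectopic transgene, and the sample labels give their genotype as Fra-2 tg/wt. WT mice were their littermates, on a mixed BL6CBA background back-crossed to C57BL6/J. Neither the labels nor the methods used here name the promoter of the transgene or the cells in which it is active. All mice were 8 weeks old and untreated, and total RNA of the snap-frozen right lung was hybridised to single-colour Agilent arrays, with 4 WT females, 4 WT males, 4 TG females and 4 TG males. The labels name no animal, and each of the 16 arrays was counted as 1 mouse.

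Type I interferons are secreted by cells that detect foreign nucleic acid, and they bind the receptor formed by IFNAR1 and IFNAR2 on the same and on neighbouring cells. The receptor's kinases phosphorylate STAT proteins, among them STAT2, which join IRF9 in a complex that binds the interferon-stimulated response element (ISRE) in front of a large set of genes. The products of these genes cut or bind viral RNA, block translation and budding, or serve as sensors and transcription factors that amplify the response. Many are also expressed at a low tonic level in healthy tissue, kept up by small amounts of interferon.

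The RNA of many of these genes was lower in TG lungs. Of the 40, 15 were called lower and 1 higher in TG lungs (limma, adjusted p under 0.05), against 7.08% of all genes called lower and 6.05% called higher. By log2 fold change, the genes called lower were led by Oas2, Oasl1, Rtp4, Oas1g, Rsad2 and Oas1a. They also held Irf7, the transcription factor that amplifies interferon production, and the sensors Ifih1 and Zbp1. Isg15, Stat2 and Irf9, which are among the best known genes of the response, did not pass the test. The log2 fold changes ran from -1.54 for Oas2 to 0.44 for Oas1b with a median of -0.40, whereas the median over all genes was -0.03. Point estimates were below 0 in 36 of the 40 genes, against 53.4% of all genes. In whole lung, fewer cells of a type and less RNA per cell cannot be told apart. Without the 3 arrays that stood apart from the rest, those of WT male replicate 1 and TG female replicates 1 and 4, 9 of the same 15 genes were called lower and 34 of 40 point estimates were below 0. Oas1g and Rsad2 were among the genes that lost their call. The shares of all genes above, 7.08% called lower and 53.4% below 0, belong to the fit with all arrays. The matching shares without the 3 arrays are not given here. Whether the 40 genes weakened more or less than all genes therefore cannot be read from these counts.

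**Figure D1:**
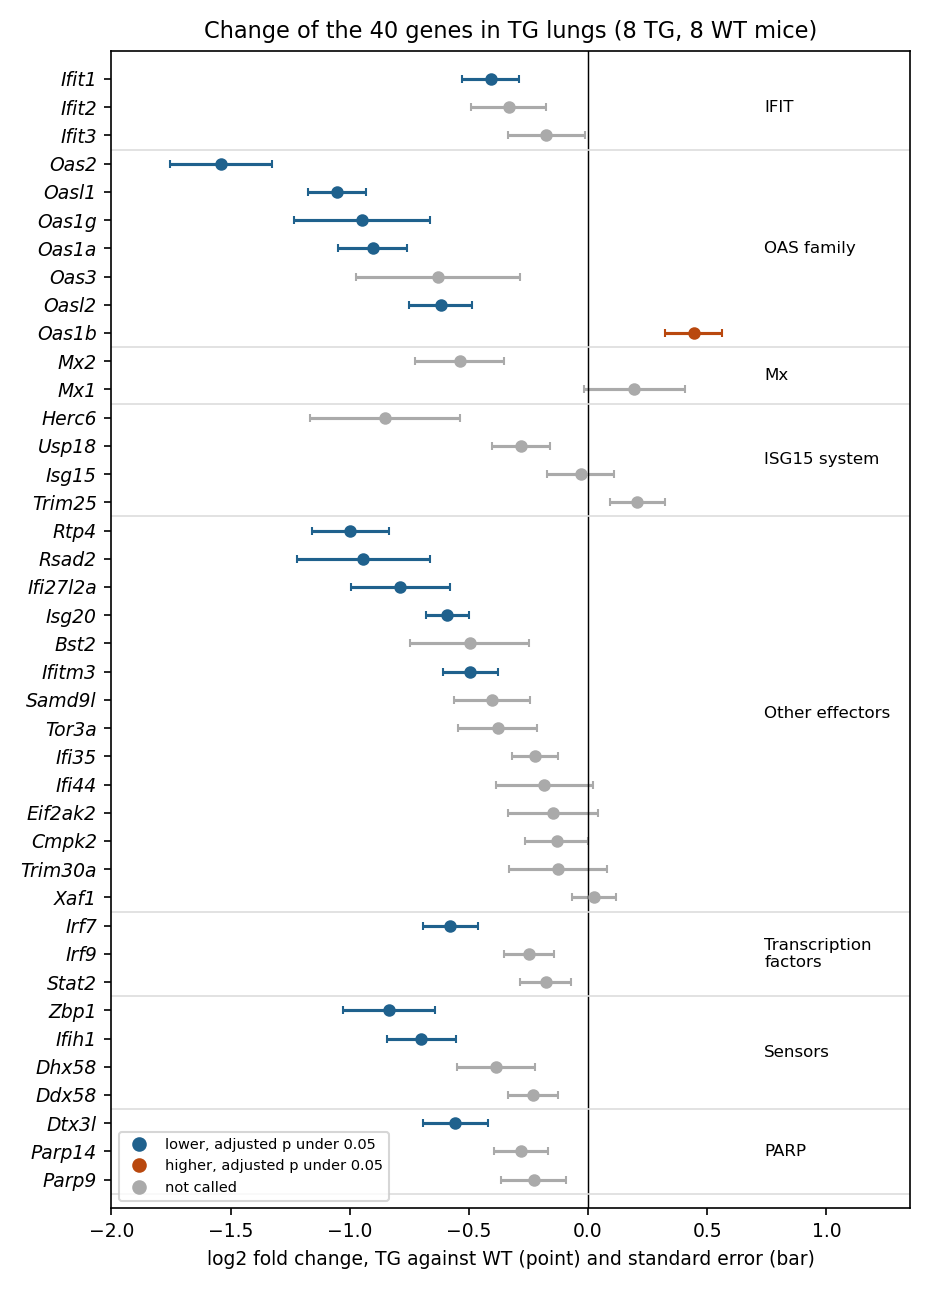
Log2 fold change of each of the 40 genes in TG against WT lungs (point, horizontal axis in log2 units) with its standard error (bar), sorted within functional groups, n = 8 mice per genotype. Blue marks the 15 genes called lower and orange Oas1b, the 1 gene called higher, and grey points did not pass the limma test.

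Promoters of 6 of these genes are shown because they hold the ISRE as a recognisable run of letters in genes that were called lower (Ifit1, Oas1a, Oas1g and Rsad2) and in genes that were not called (Isg15 and Ifit3). Of the 40 genes, 28 matched an entry of the RefSeq promoter table of GRCm38.p6, which holds 250 bases before to 50 bases after each gene's start. Each line gives the 160 bases before the start, in the direction of the gene. Capitals mark matches to GAAANNGAAA on either strand (an ISRE core) and to TGANTCA, called the AP-1 motif here. TGANTCA leaves the middle base free, so it is wider than the paper's AP-1 consensus TGA-C/G-TCA, the class of site that Fra-2 dimers bind. All AP-1 counts below are for TGANTCA, and the narrower consensus was not counted.
Isg15 (chr4:156200819-156200978, minus strand): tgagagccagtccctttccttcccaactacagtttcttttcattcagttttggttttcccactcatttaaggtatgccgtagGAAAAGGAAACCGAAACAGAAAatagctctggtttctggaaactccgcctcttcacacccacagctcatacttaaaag
Ifit1 (chr19:34640729-34640888, plus strand): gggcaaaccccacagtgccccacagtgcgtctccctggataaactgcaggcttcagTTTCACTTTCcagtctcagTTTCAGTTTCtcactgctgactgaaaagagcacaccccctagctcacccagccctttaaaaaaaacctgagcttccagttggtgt
Ifit3 (chr19:34583369-34583528, plus strand): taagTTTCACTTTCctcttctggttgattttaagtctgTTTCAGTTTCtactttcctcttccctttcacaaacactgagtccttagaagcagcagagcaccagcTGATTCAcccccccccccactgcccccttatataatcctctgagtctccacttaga
Oas1a (chr5:120907526-120907685, minus strand): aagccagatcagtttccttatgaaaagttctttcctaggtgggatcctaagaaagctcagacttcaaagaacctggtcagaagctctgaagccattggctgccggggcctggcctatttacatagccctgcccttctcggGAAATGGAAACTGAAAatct
Oas1g (chr5:120887614-120887773, minus strand): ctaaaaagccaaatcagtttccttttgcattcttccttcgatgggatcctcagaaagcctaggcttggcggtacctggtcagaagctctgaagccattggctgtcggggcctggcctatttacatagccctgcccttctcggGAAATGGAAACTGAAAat
Rsad2 (chr12:26456453-26456612, minus strand): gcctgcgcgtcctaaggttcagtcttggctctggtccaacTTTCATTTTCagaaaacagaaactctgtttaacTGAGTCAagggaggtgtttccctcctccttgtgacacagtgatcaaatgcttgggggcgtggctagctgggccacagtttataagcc
In Isg15 the 3 matches to the ISRE core overlapped, starting at -78, -72 and -66 from the gene's start. Oas1a, with matches at -20 and -14, and its neighbour Oas1g, with matches at -18 and -12, held the same run of letters next to the start. Set side by side at an offset of 2 bases without gaps, their promoters were identical at 207 of 298 bases (69.5%). An inserted or missing base lowers this share, since gaps were not allowed. In Ifit1 the matches at -104 and -85 lay on the other strand, as did those at -156 and -122 in Ifit3 and at -120 in Rsad2. The AP-1 motif matched at -56 in Ifit3, as TGATTCA, which is outside the paper's consensus, and at -87 in Rsad2, as TGAGTCA, which is within it. Over the whole window, the ISRE core was found in 14 of the 28 genes (50%), against 3.99% of 27025 genes in the table, and the AP-1 motif in 7 of 28 (25%), against 8.97%. The ISRE core was found in 6 of the 11 genes called lower that had an entry (54.5%) and in 8 of the 17 that were not called (47.1%), and the AP-1 motif in 2 of the 11 (18.2%) and in 5 of the 17 (29.4%). Genes called lower without a match to the ISRE core were Oasl1, Oasl2, Isg20, Irf7 and Dtx3l. A match describes letters in this window, and binding was not measured. Zbp1, Parp14, Usp18, Rtp4, Tor3a, Oas2, Parp9, Dhx58, Mx2, Ifi27l2a, Mx1 and Oas1b had no entry.

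Averaged over the 40 genes, each taken relative to its own mean over the 16 mice, the module mean separated WT females from all TG mice. It was 0.36 ± 0.10 in WT females, 0.07 ± 0.20 in WT males, -0.27 ± 0.20 in TG females and -0.17 ± 0.16 in TG males (log2 units, SD, n = 4 each). WT females ranged from 0.29 to 0.51 and TG mice of both sexes from -0.44 to -0.00. Among WT males, replicate 1 was at 0.37, at the level of WT females, and the other 3 lay between -0.07 and 0.02, overlapping the TG males at -0.37 to -0.00. TG minus WT was -0.44 over both sexes, -0.63 in females and -0.25 in males, and the value in males was -0.15 without WT male replicate 1. In single mice, 32 to 37 of the 40 genes were above their own mean in WT females, 12 to 32 in WT males and 6 to 16 in TG mice.

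**Figure D2:**
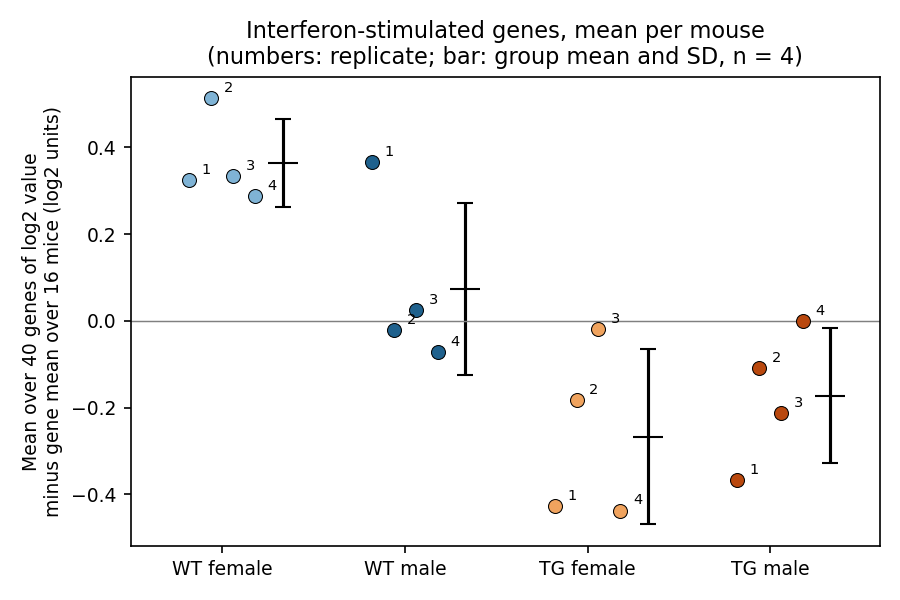
Module mean of the 40 genes per mouse (vertical axis, log2 value minus the gene's mean over 16 mice, averaged over genes), with replicate numbers beside the points and group mean and SD as bars, n = 4. WT females lie between 0.29 and 0.51 and TG mice between -0.44 and -0.00, with WT male replicate 1 at 0.37 and the other WT males near 0.

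The authors' quantile normalization left sorted values of any 2 arrays within 0.00707 of each other, array correlations ranged from 0.953 to 0.990, and the sex-linked genes Xist, Uty and Eif2s3y split males from females in accordance with the labels. On the first principal component of all genes (28.5% of the variance), TG female replicates 1 and 4 lay at 89.5 and 76.6 against 4.02 to 30.6 in the other TG mice, and WT male replicate 1 at 11.5 against -45.6 to -27.1 in the other WT mice. All 4 TG females had lower mean correlations with their own group (0.970 to 0.977) than the other mice (0.980 to 0.988). None of 12 markers of lung tissue was called (list mean 13.91 to 14.13 in WT and 14.04 to 14.16 in TG lungs). Of the 2 features for Fosl2, the brighter had means of 9.55 ± 0.50 in WT and 9.40 ± 0.44 in TG lungs (SD, n = 8 each; limma adjusted p = 0.731 over all features), and the dimmer at 2.39 to 4.91 in WT and 6.56 to 10.66 in TG lungs (log2 fold change 4.77).

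The oligoadenylate synthetases were the group with the largest share of changed genes, with 5 of 7 lower and 1 higher. The active enzymes of this family sense double-stranded RNA and make the second messenger 2-5A, which sets off the degradation of RNA. Oas2 ranged from 8.82 to 10.09 on the log2 scale in WT lungs (median 9.35) and from 6.95 to 8.26 in TG lungs (median 8.07). All TG mice lay below all WT mice, which was so for 0.893% of all genes, and the mean fell from 9.43 ± 0.47 to 7.89 ± 0.42 (SD, n = 8 each; log2 fold change -1.54 ± 0.21 SE, 2.90-fold lower, limma adjusted p = 0.000603). Oasl1, which in mouse restrains translation of Irf7, ranged from 7.77 to 8.66 in WT (median 8.43) and from 6.87 to 7.56 in TG lungs (median 7.23). The groups were again apart, with means of 8.33 ± 0.30 and 7.28 ± 0.23 (SD, n = 8 each; log2 fold change -1.05 ± 0.12 SE, 2.08-fold lower, limma adjusted p = 0.000126). Oas1a, which encodes an active synthetase, ranged from 9.88 to 11.15 in WT (median 10.59) and from 9.25 to 9.96 in TG lungs (median 9.64). The groups overlapped only between 9.88 and 9.96, and the log2 fold change was -0.90 ± 0.15 (SE, 1.87-fold lower, limma adjusted p = 0.00155). Oasl2, a synthetase with ubiquitin-like domains, ranged from 10.03 to 10.82 in WT (median 10.52) and from 9.53 to 10.27 in TG lungs (median 9.84). It fell by 0.62 ± 0.13 on the log2 scale (SE, limma adjusted p = 0.00797), with a wider overlap.

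The remaining synthetases were less firmly measured. Oas1g ranged from 2.86 to 4.71 in WT (median 4.38) and from 2.22 to 4.24 in TG lungs (median 3.11), below the median of all array values of 4.75, so that a dim feature carried its log2 fold change of -0.95 ± 0.28 (SE, limma adjusted p = 0.0400). Without the 3 arrays its log2 fold change was -0.63 with an adjusted p of 0.174. Oas3, the neighbour of Oas2, was as dim and was not called (log2 fold change -0.63 ± 0.34 SE, limma adjusted p = 0.252). Oas1b was the only member called higher. In mouse this gene decides resistance to flaviviruses, and RefSeq lists it as a transcribed pseudogene in the C57BL/6 reference. Its brightest feature ranged from 12.40 to 13.11 in WT (median 12.63) and from 12.81 to 13.56 in TG lungs (median 13.02), with a log2 fold change of 0.44 ± 0.12 (SE, limma adjusted p = 0.0276). Its other 2 features had log2 fold changes of -0.06 and 0.01 and were not called, so the rise rests on 1 of 3 features. Oas1 genes resemble each other closely, and binding of one gene's RNA to another gene's feature was not tested. In the Oas cluster of chromosome 5, genes called lower lay between genes that were not. The genes with a position here lie in the order Oas2, Oas3, Oas1e, Oas1c, Oas1f, Oas1h, Oas1g, Oas1a and Oas1d in GRCm38.p6. Oas1b, the member called higher, had no position here, so this order leaves it out. Oas1f, no member of the 40, had a log2 fold change of -1.04 (limma adjusted p = 0.000656), and Oas1c, Oas1e, Oas1h and Oas1d had -0.16, -0.13, 0.23 and 0.48 and were not called.

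**Figure D3:**
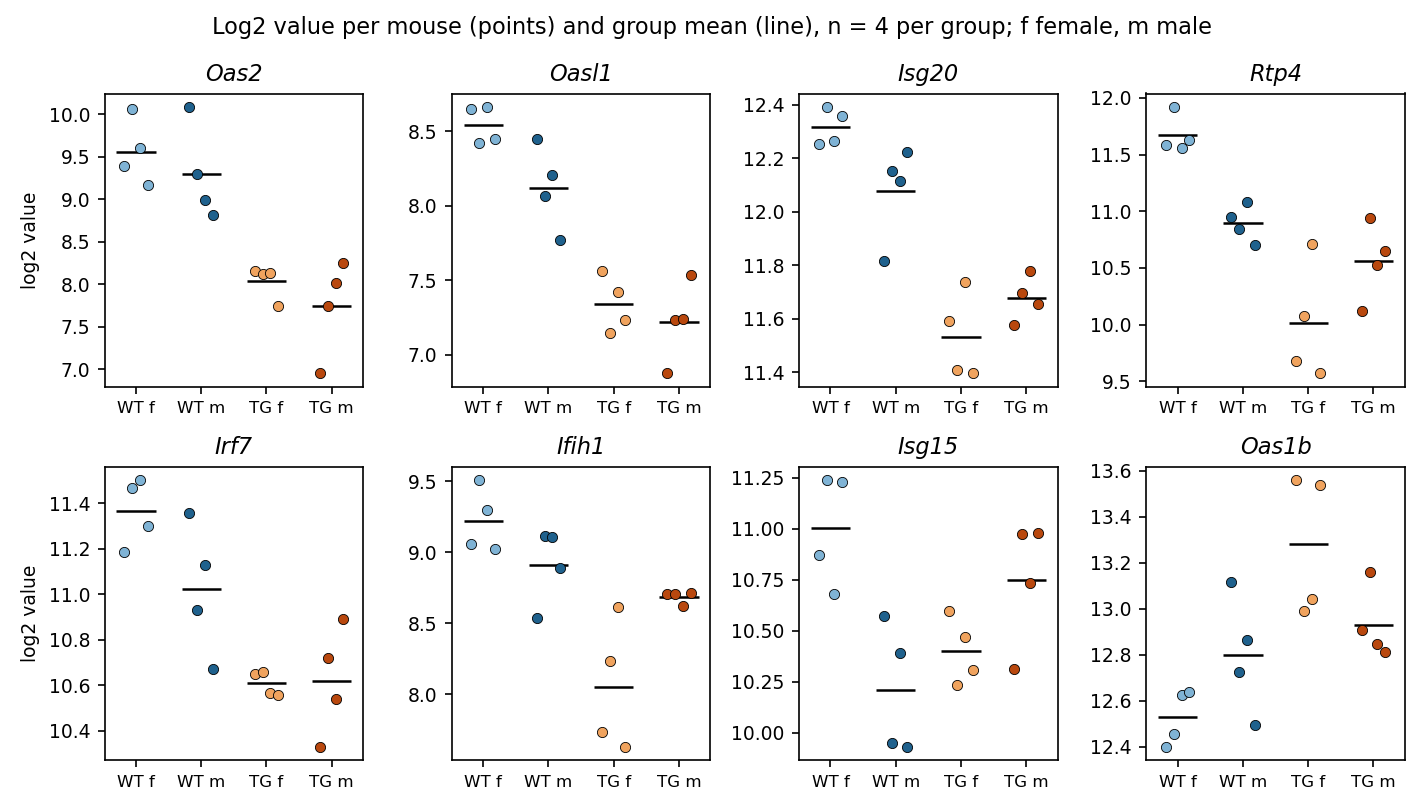
Log2 value (vertical axis) of 8 genes in each mouse (points) with the group mean (line), for WT females, WT males, TG females and TG males, n = 4 per group. TG mice lie below all WT mice for Oas2, Oasl1 and Isg20, whereas Isg15 is higher in WT females than in WT males and Oas1b is highest in TG females.

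Among the other antiviral effectors, 5 of 14 were lower and 0 higher. Isg20, an exonuclease that degrades viral RNA, was the third gene with complete separation of the genotypes. It ranged from 11.81 to 12.39 in WT (median 12.24) and from 11.40 to 11.78 in TG lungs (median 11.62; log2 fold change -0.59 ± 0.09 SE, limma adjusted p = 0.00108). A dimmer feature of Isg20 changed by -0.70 (adjusted p = 0.00834 over all features, limma). Rtp4, which was described as a receptor transport protein and restrains flavivirus replication, ranged from 10.71 to 11.92 in WT (median 11.32) and from 9.57 to 10.95 in TG lungs (median 10.33). Its log2 fold change was -0.997 ± 0.16 (SE, limma adjusted p = 0.00166). The 4 WT females were the highest of all mice for Rtp4, and the TG mice above the lowest WT mouse were TG male replicate 2 and TG female replicate 3.

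Rsad2, or viperin, which makes a chain-terminating nucleotide, ranged from 6.57 to 7.78 in WT (median 7.25) and from 5.06 to 7.29 in TG lungs (median 6.37). The log2 fold change was -0.94 ± 0.28 (SE, limma adjusted p = 0.0381), and Rsad2 was not called without the 3 arrays (-0.54, adjusted p = 0.200) or with the mean of its 2 features (-0.37, 0.387). Cmpk2, a mitochondrial nucleotide kinase whose gene is the neighbour of Rsad2, was at 8.81 ± 0.43 in WT and 8.68 ± 0.24 in TG lungs (SD, n = 8 each) and was not called (log2 fold change -0.13, limma adjusted p = 0.562). Ifitm3, a membrane protein that blocks fusion of viruses in endosomes, ranged from 14.02 to 14.55 in WT (median 14.33) and from 13.13 to 14.03 in TG lungs (median 13.92). It fell by 0.49 ± 0.12 on the log2 scale (SE, limma adjusted p = 0.0133), and the genotypes overlapped only between 14.02 and 14.03. Ifi27l2a, a small hydrophobic protein gene of the Ifi27 family, ranged from 12.98 to 14.25 in WT (median 13.73) and from 12.37 to 13.81 in TG lungs (median 12.76). Its log2 fold change was -0.79 ± 0.21 (SE, limma adjusted p = 0.0230), and the TG median lay below the lowest WT mouse. The call was lost without the 3 arrays (-0.55, limma adjusted p = 0.115) and with the mean of its 2 features (-0.39, 0.173), the dimmer of which had 0.02.

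The other 9 effectors did not pass the test, and 8 of them had negative point estimates. Bst2, or tetherin, which holds budding virus at the cell surface, had a log2 fold change of -0.50 ± 0.25 (SE, limma adjusted p = 0.207), with TG mice from 9.81 to 11.25 against 10.64 to 11.78 in WT. Samd9l, an inhibitor of translation, had -0.40 (adjusted p = 0.111), Tor3a -0.38 (0.151) and Ifi35 -0.22 (0.145), whereas a dimmer feature of Ifi35 was called at -0.41 (adjusted p = 0.0231 over all features, limma). Eif2ak2, the kinase PKR that halts translation on double-stranded RNA, had -0.15 (adjusted p = 0.661), and Ifi44, Cmpk2 and Trim30a had -0.18, -0.13 and -0.13. Xaf1, a pro-apoptotic binding partner of XIAP, had 0.03 ± 0.09 (SE).

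Of the IFIT genes, whose products bind foreign 5′ ends of RNA, Ifit1 alone passed the test. It ranged from 7.66 to 8.66 in WT (median 8.31) and from 7.44 to 8.03 in TG lungs (median 7.76; log2 fold change -0.41 ± 0.12 SE, limma adjusted p = 0.0372). The call was lost in 17 of 35 alternatives, among them without the 3 arrays (-0.30, adjusted p = 0.0867), without sex in the limma model (0.0886) and in the exact Wilcoxon test (0.246). The 3 genes lie side by side on chromosome 19 in the order Ifit2, Ifit3 and Ifit1. Ifit2 had a log2 fold change of -0.33 (limma adjusted p = 0.182) and Ifit3 of -0.17 (0.517). Neither Mx gene, which encode dynamin-like GTPases, was called. Mx1, a transcribed pseudogene in the RefSeq annotation of the C57BL/6 reference, ranged from 4.54 to 5.63 in WT (median 4.82) and from 4.16 to 5.88 in TG lungs (log2 fold change 0.19 ± 0.21 SE, limma adjusted p = 0.597). A second feature of Mx1 was at -0.49 (adjusted p = 0.448 over all features). Mx2 had a log2 fold change of -0.54 ± 0.19 (SE, limma adjusted p = 0.0693).

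None of the 4 genes of the ISG15 system was called. Isg15, a ubiquitin-like protein that is joined to other proteins, ranged from 9.93 to 11.24 in WT (median 10.62) and from 10.24 to 10.98 in TG lungs (median 10.53). The TG mice lay within the range of the WT mice, with means of 10.61 ± 0.51 and 10.58 ± 0.30 (SD, n = 8 each; log2 fold change -0.03 ± 0.14 SE, limma adjusted p = 0.911). Usp18, the protease that removes ISG15 and dampens the receptor, had a log2 fold change of -0.28 (limma adjusted p = 0.145). Herc6, the main ISG15 ligase in mouse, had -0.85 ± 0.31 (SE, limma adjusted p = 0.0874), with TG mice spread from 3.37 to 6.71 around WT mice at 5.86 to 6.87. The lowest Herc6 values came from TG female replicates 1 and 4, and without the 3 arrays the log2 fold change was -0.37. Trim25, a ubiquitin ligase that acts on RIG-I, had 0.21 ± 0.11 (SE, limma adjusted p = 0.259), and a second feature of it was called higher at 0.69 (adjusted p = 0.0346 over all features).

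Among the transcription factors of the response, Irf7 was lower and Stat2 and Irf9 were not called. Irf7 ranged from 10.67 to 11.50 in WT (median 11.24) and from 10.33 to 10.89 in TG lungs (median 10.61; log2 fold change -0.58 ± 0.11 SE, limma adjusted p = 0.00540). Its dimmer feature fell by 0.86 (adjusted p = 0.0397 over all features, limma). Stat2 ranged from 9.98 to 10.79 in WT (median 10.29) and from 9.97 to 10.34 in TG lungs (median 10.17; log2 fold change -0.18 ± 0.11 SE, limma adjusted p = 0.298). Irf9, which gives the complex its DNA contact, ranged from 10.68 to 11.26 in WT (median 11.03) and from 10.42 to 10.91 in TG lungs (median 10.78; log2 fold change -0.25 ± 0.11 SE, limma adjusted p = 0.137). Both overlapped widely between genotypes.

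Of the 4 sensors, 2 were lower. Ifih1, or MDA5, which binds long double-stranded RNA, ranged from 8.54 to 9.51 in WT (median 9.09) and from 7.63 to 8.71 in TG lungs (median 8.62; log2 fold change -0.70 ± 0.15 SE, limma adjusted p = 0.00729). Its dimmer feature had a log2 fold change of -0.01, and with the mean of both features Ifih1 was not called (-0.36, limma adjusted p = 0.235). The 4 TG males lay close together at the top of the TG range, and the lowest values were those of TG females. Zbp1, which binds Z-form nucleic acid and starts necroptosis, ranged from 6.18 to 7.51 in WT (median 7.21) and from 5.80 to 6.97 in TG lungs (median 6.27; log2 fold change -0.84 ± 0.19 SE, limma adjusted p = 0.0127). Without the 3 arrays Zbp1 had an adjusted p of 0.0853. Ddx58, or RIG-I, had a log2 fold change of -0.23 (limma adjusted p = 0.162), and its second of 4 features was called in the other direction, at 1.01 (adjusted p = 0.00292 over all features). Dhx58, or LGP2, had -0.39 (limma adjusted p = 0.133). In the Parp14, Dtx3l and Parp9 cluster of chromosome 16, Dtx3l, a ubiquitin ligase that works as a pair with PARP9, ranged from 8.83 to 9.51 in WT (median 9.20) and from 8.11 to 9.11 in TG lungs (median 8.69). Its log2 fold change was -0.56 ± 0.14 (SE, limma adjusted p = 0.0163), and it was not called without the 3 arrays (-0.38, adjusted p = 0.0736), with the mean of its 2 features (-0.24, 0.297) or with females fitted alone (-0.66, 0.0978). The log2 fold changes of Parp9 and Parp14, ADP-ribosyltransferases, were -0.23 and -0.28, and neither was called.

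The choice of feature mattered for some genes. Of 72 features of the 40 genes, 18 were called lower and 3 higher, against 5.45% and 5.86% of all features. Among the 15 genes called lower, 9 had a dimmer feature, 6 of these 9 had a negative change, and 2 were called lower, those of Irf7 and Isg20. The 3 features called higher were those of Oas1b, Ddx58 and Trim25, and the sequence each of them covers was not analysed here.

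The same genes were compared within each sex, which the balanced design allows. In females, 15 were lower and 1, Oas1b, was higher by limma (9% and 7.15% of all genes). These are not the same 15 as over both sexes. They included Ifit2 and Herc6 (limma adjusted p = 0.0350 and 0.0157 in females) and left out Oas1g and Rsad2 (0.0567 and 0.129). In males 2 were lower, Oas2 and Oasl1, and 0 higher by limma (0.337% and 0.309%). At an unadjusted p under 0.05 (limma), 9 of the 40 were lower in males, against 5.5% of all genes, and 2 were higher, Isg15 and Xaf1, against 4.55%. The 9 were Oas1a, Oas2, Oas3, Oasl1, Oasl2, Isg20, Rsad2, Irf7 and Dtx3l. Over the 40 genes the median change was -0.64 in females and -0.23 in males on the log2 scale, and over all genes it was -0.02 in each sex. TG females lay below all WT females for 21 genes (11.7% of all genes) and TG males below all WT males for 6 (4.03%). For Oas2 and Oasl1 all TG males lay below all WT males, but the adjusted calls in males were lost when single males were left out. Without TG male replicate 1 or 2, or without WT male replicate 1 or 2, 0 genes were called lower in males, and without TG male replicate 3 or WT male replicate 3 it was 1.

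The difference between the sexes was tested as an interaction, and no gene passed, among the 40 or among all genes (limma). At an unadjusted p under 0.05, 13 of the 40 genes differed, against 12.9% of all genes, and in 11 of them the change in females was below that in males (6.83% of all genes). By point estimate the change in females was the lower one in 31 of the 40 genes, against 50.3% of all genes. Without the 3 arrays 7 of 40 differed at that level, against 5.71% of all genes. Isg15 had point estimates of opposite sign in the sexes. WT females were at 10.68 to 11.24 and TG females at 10.24 to 10.59, without overlap, whereas WT males were at 9.93 to 10.57 and TG males at 10.31 to 10.98. Females had a log2 fold change of -0.60 and males one of 0.54, and the difference had an adjusted p of 0.330 (limma). Rtp4 changed by -1.66 in females (limma adjusted p = 0.00102) and had a log2 fold change of -0.33 in males (adjusted p = 0.700). Ifi44, a cytoplasmic antiviral protein, had -0.88 in females and 0.51 in males and passed in neither. Oas2 and Rsad2 had near-equal values in the sexes, -1.52 and -1.56 for Oas2 and -0.92 and -0.97 for Rsad2.

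**Figure D4:**
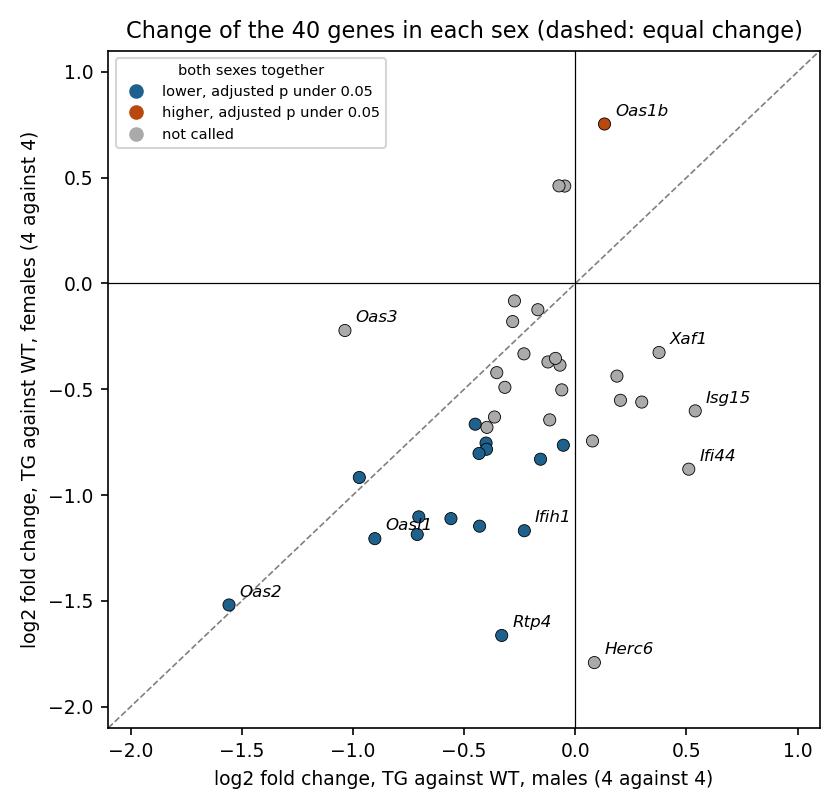
Log2 fold change of each gene in TG against WT females (vertical axis) and males (horizontal axis), 4 against 4 mice each, coloured by the call over both sexes. Of the 40 points, 31 lie below the dashed line of equal change, among them Rtp4, Ifi44, Herc6 and Isg15, while Oas2 lies on it.

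The sexes were also compared without the transgene. In WT lungs, 33 of the 40 genes were higher in females than in males by point estimate, against 50.7% of all genes, with a median difference of 0.29 on the log2 scale. At an unadjusted p under 0.05, 10 were higher in WT females, against 2.20% of all genes, and 0 of the 40 passed after adjustment over all genes (limma; 0.0165% of all genes did). These 10 were Ifit1, Oas1a, Oas1g, Oasl1, Oasl2, Isg15, Cmpk2, Xaf1, Rtp4 and Ifi44. Isg15 was higher by 0.79 on the log2 scale in WT females (limma adjusted p = 0.921). Without WT male replicate 1, which had the highest module mean among males, 15 genes were higher at that level, against 1.23% of all genes. The median difference was then 0.39. This fit was chosen after seeing the data. Leaving out the male with the highest mean over these genes widens their mean difference by construction, so no conclusion is drawn from it. The WT groups enter both this comparison and those of TG against WT, so that the 2 are not independent.

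**Figure D5:**
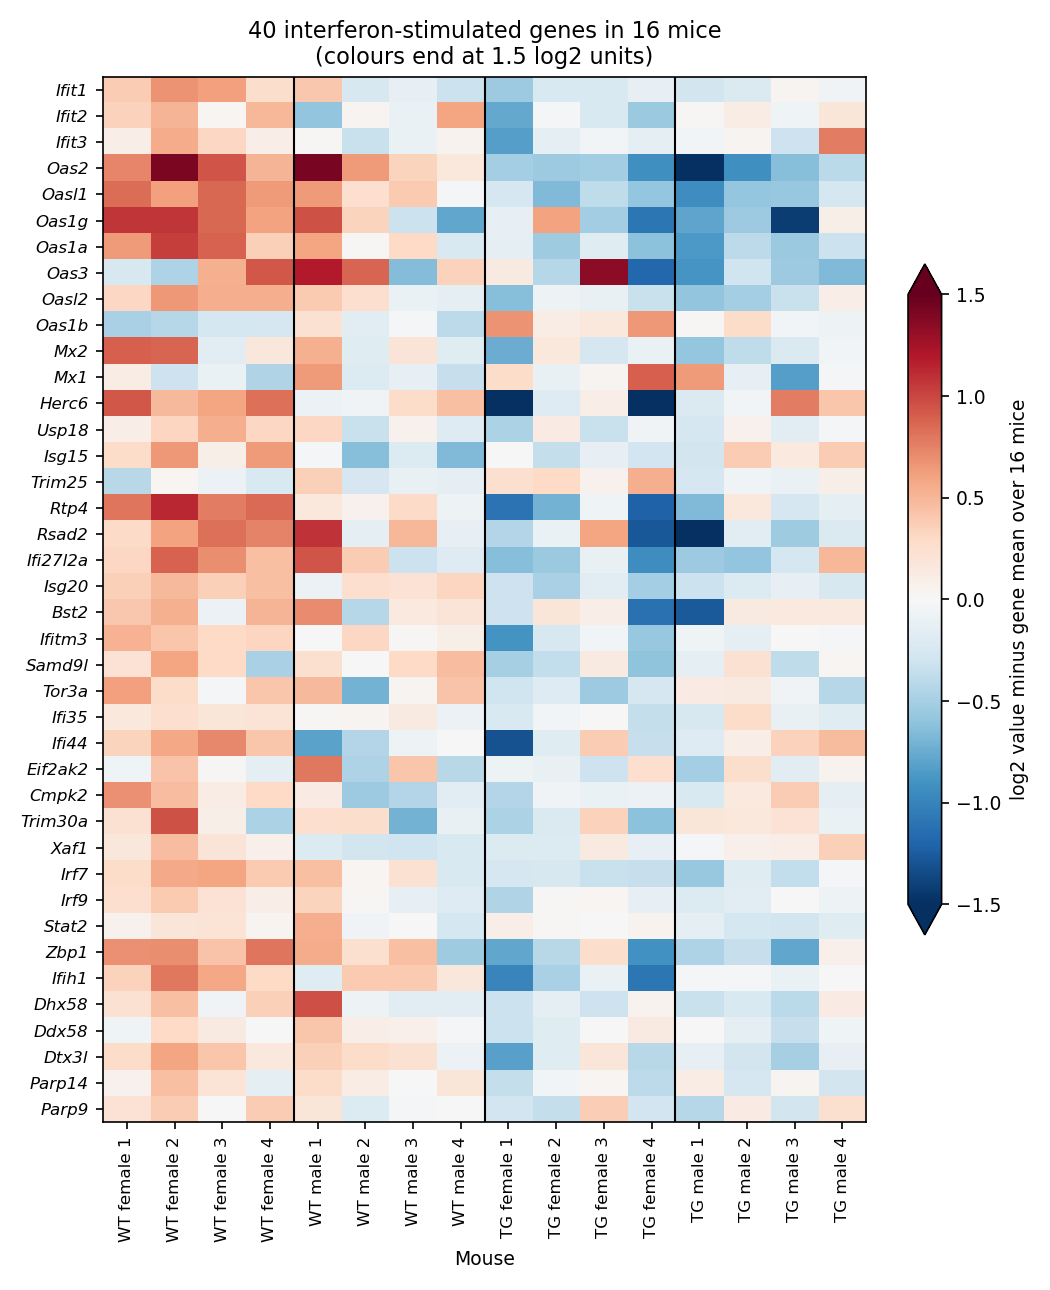
Log2 value of each of the 40 genes (rows, by functional group) in each of the 16 mice (columns), minus the gene's mean over all mice, with the colour scale ending at 1.5 log2 units. WT females and WT male replicate 1 are above the mean in 32 to 37 of the genes, and TG female replicates 1 and 4 and TG male replicate 1 below it in 33 to 34.

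The interferons themselves were dim. Of 17 type I and III interferon genes, 1 was higher (5.88%, near the 6.05% of all genes) and 0 lower (against 7.08%). Their list mean was 3.54 to 3.87 in WT and 3.45 to 3.95 in TG lungs, below the median array value of 4.75. The called gene, Ifna11, was at 4.40 ± 0.74 in WT and 5.80 ± 1.11 in TG lungs (SD, n = 8 each; log2 fold change 1.40, limma adjusted p = 0.0306), and Ifnb1, at 3.04 ± 0.58 and 3.02 ± 0.44, was not called. Of the receptor chains, Ifnar1 was higher at 0.35 (limma adjusted p = 0.0418), and Ifnar2 had -0.28 (adjusted p = 0.126). Of 13 genes of the receptors and JAK-STAT signalling, 2 were higher and 1 lower (23.1% called, against 13.1% of all genes). The coactivator Ep300 was higher by 0.54, and Ptpn6, the phosphatase SHP-1 of leukocytes, was lower by 1.11 on the log2 scale, with all TG mice below all WT mice.

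Of 22 genes that lead to interferon production, 5 were lower and 2 higher (31.8% called, against 13.1% of all genes). Tlr7, the endosomal sensor of single-stranded RNA, was at 7.55 to 8.10 in WT and 5.34 to 7.42 in TG lungs, without overlap (log2 fold change -1.40 ± 0.24 SE, limma adjusted p = 0.00196). Irf8 fell by 0.50, Myd88 by 0.44 and Unc93b1, the chaperone of endosomal Toll-like receptors, by 0.38 on the log2 scale. Tlr3 rose by 0.74 and Tlr9 by 0.38. Irf1 and Irf3 had -0.15 and -0.24 and were not called. Among 50 relatives of the 40 genes and further interferon-stimulated genes, 14 were lower and 2 higher (32% called). Phf11b had the smallest adjusted p among them, with a log2 fold change of -1.53 (limma adjusted p = 3.33e-05). Ifit1bl2, next of kin to Ifit1, fell by 0.81 with the genotypes apart, Uba7, the activating enzyme of ISG15, by 0.56 and Lgals3bp by 0.67 on the log2 scale. Slfn9 rose by 0.96. Of 7 genes of the p200 family of DNA sensors, 1 was lower (14.3% called), Ifi208, at -0.77.

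Of a list of 13 genes made up of Ifng, the gene of interferon-gamma, and its targets, many of which also respond to type I interferon, 6 were lower, Ifng among them, and 1 was higher. In this list 53.8% were called, against 13.1% of all genes. Ifng was at 5.22 ± 0.61 in WT and 3.55 ± 0.72 in TG lungs (SD, n = 8 each; log2 fold change -1.67, limma adjusted p = 0.00336), the immunity-related GTPase Igtp fell by 1.34 on the log2 scale, and Gbp5 rose by 0.59.

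Markers of several leukocytes moved with genotype as well, and their part in the values of the 40 genes was not tested. Over all genes, 7.08% were called lower and 6.05% higher. Of 12 NK cell markers, 9 were lower, with a list mean of 7.05 to 7.91 in WT and 4.41 to 4.92 in TG lungs. Of 12 markers of plasmacytoid dendritic cells, the main producers of type I interferon, 4 were lower (Ccr9, Cox6a2, Spib and Ly6d) and 2 higher (Pltp and Tcf4). Their list mean was 9.29 to 9.63 in WT and 8.87 to 9.25 in TG lungs, without overlap, and Siglech was not called. Spib was on the B cell list too and is counted in both. Of 10 monocyte markers, 3 were lower and 2 higher (list mean 10.51 to 10.86 in WT and at most 10.49 in TG lungs), of 10 neutrophil markers 4 lower and 1 higher (9.28 to 9.92 and 8.09 to 10.10), and of 8 B cell markers 4 lower (7.80 to 9.08 and 7.02 to 8.48). T cell markers had 1 of 9 lower, eosinophil markers 1 of 8 lower and endothelial markers 2 of 8 higher. The eosinophil list mean was 4.16 to 5.39 in WT and 3.90 to 5.10 in TG lungs. By flow cytometry, the paper reports more eosinophils in TG lungs. Alveolar macrophage markers had 5 of 11 lower over both sexes, 7 in females and 1 in males. Their list mean was 10.69 to 11.00 in WT females, 9.94 to 11.00 in WT males, 9.29 to 9.93 in TG females and 9.95 to 10.40 in TG males, so that the genotypes were apart in females and overlapped in males.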

How the data were processed

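Lung RNA of 16 mice was measured on single-colour Agilent arrays. The authors corrected the intensities for background, quantile normalized them with limma and deposited log2 values, 1 per feature and array, with no flags. The paper's methods name the RNeasy kit and Cy5, the labels Trizol with a column and Cy3. All value columns were used, and depth does not apply, so that the number of arrays limits the precision. Of 62976 features, 43941 had 1 gene symbol and 19035 none. Symbols were updated through a gene table of GRCm38.p6. The feature with the highest mean stood for a gene, which gave 24306 genes, 11040 of them with several features.

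A linear model with 1 mean for each of the 4 groups was fitted to each gene (limma 3.58.1, R 4.3.3, moderated with eBayes), with Benjamini-Hochberg adjustment over all genes and a threshold of 0.05. Each limma p-value sets a difference of group means against the moderated spread between arrays within the 4 groups. The code of the fit was tested on simulated data with independent noise of equal spread on all arrays, which do not imitate arrays that stand apart. The module mean received no test. Members and gene lists were chosen with earlier results of these data known. Values per mouse are given for members that were called, for Stat2, Irf9, Isg15 and Mx1, and for other list genes at most 6 by smallest adjusted p with Ifnar1, Ifnar2, Irf1, Irf3 and Ifnb1. Alternatives covered the model, replicate blocks, features, filters leaving out the dimmest 33.3% or 50% of genes, normalization, eBayes settings, array weights, the exact Wilcoxon test, thresholds, each sex alone and arrays left out. Figures were drawn with matplotlib 3.10.9 in Python 3.11.15. Some genes of the pathway and marker lists were not analysed here.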

Additional observations from a re-analysis of the deposited data

Results flagged for a closer look

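In 3 of 80 groups of 8 mice, formed by each of the 40 genes and each genotype, 1 mouse lay far from the others, and chance gives about 1 in 20 such groups. For Oas2, TG male replicate 1 was the lowest TG mouse at a log2 value of 6.954, and the nearest other TG mouse was at 7.746. For Ifi44, TG female replicate 1 was lowest at 6.979, with the nearest TG mouse at 7.939. For Zbp1, WT male replicate 4 was the lowest WT mouse at 6.18, with the nearest at 6.954. Without the mouse concerned, the log2 fold change of Oas2 was -1.41, and Oas2 and Zbp1 stayed below an adjusted p of 0.05 (limma).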

How the results depend on the processing

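Oas1a, Oas2, Oasl1, Oasl2, Isg20, Rtp4 and Irf7 kept their direction under all alternatives run and lost their call only in males alone. The number of members called lower, 15, was 8 at an adjusted p under 0.01, 0 in males alone, 9 without the 3 arrays and 9 without TG female replicates 1 and 4, and the number called higher, 1, was 0 at an adjusted p under 0.01, with the exact Wilcoxon test, in males alone, with the mean of all features and without TG female replicates 1 and 4. All genes called lower, 1721, became 476 at 0.01 and 2737 at 0.1, 1027 in females and 50 in males alone, and 722 without TG female replicates 1 and 4. Those called higher, 1471, became 550 at 0.01, 974 in females and 39 in males alone, and 745 without these females. Without the 3 arrays, members higher in WT females at an unadjusted p under 0.05 (limma) numbered 16, against 1.93% of all genes. Members that differed between the sexes at that level numbered 7, against 5.71%. These alternatives were chosen after seeing the data. The module difference was -0.90 with members scaled to unit SD, which is another unit. The log2 fold change of Isg15, -0.03 in all mice, changed sign to 0.0072 with array weights, 0.54 in males alone and 0.0043 without the 3 arrays, and Mx1 to -0.073 in males alone and -0.15 with the mean of all features; the cause was not tested.

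Leaving out each mouse in turn gave 11 to 16 members lower and 0 to 1 higher, 1067 to 2371 of all genes lower and 1007 to 1892 higher, 11 to 20 members lower and 1 to 2 higher in females, 0 to 2 lower and 0 higher in males, 0 that differed between the sexes, a module difference of -0.48 to -0.39, and -0.085 to 0.042 for Isg15. Genes lower were 1067 without TG male replicate 1, 1145 and 1132 without WT female replicates 1 and 2, and 1083 without WT male replicate 3. Oas1b lost its call without TG female replicate 1 or 4, WT female 1 or 2, TG male 2, or WT male 2 or 4 (highest adjusted p 0.0583, limma). Ifi27l2a lost it without TG male replicate 1 or WT female 2 (0.0513), Ifit1 without TG female 1, TG male 1, 2 or 4, WT female 1, 2 or 3, or WT male 3 (0.0762), and Rsad2 without TG female 1 or 4, TG male 1 or 3, WT female 2, 3 or 4, or WT male 1 or 3 (0.0725). Oas1g kept it only without TG female 2, TG male 4 or WT male 4.

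Whether replicate numbers pair the mice was not settled by the values. Of 24 same-numbered pairs, 3 correlated above 0.1 (range -0.11 to 0.17), and 6 of 16 mice correlated best with a mouse of their own number. No chance level was worked out for these counts. With a replicate block of 4 numbers, 14 members were lower and 1 higher, and 0 were lower in males. With a replicate block within sex, 9 were lower and 0 higher, and 1067 of all genes were lower. Dim features such as those of Oas1g, Oas3 and the interferons limit what can be measured.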
